A study of Mus musculus with 12 samples.

Results

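The genes described here are 42 genes for antioxidant defence and for the handling of foreign compounds, taken from a fixed list of mouse symbols. All 42 were matched to an identifier of the count table, which holds 26305 identifiers. They were followed in mouse embryonic fibroblasts (MEFs, connective tissue cells grown from embryos), sequenced as 12 bulk RNA libraries. The groups were WM-2474 for 240 h, DMSO for 240 h, WM-2474 for 96 h and DMSO for 96 h, with 3 biological replicates each. WM-2474, a compound known here by its code name and labelled as an inactive control compound, was given at 10 µM, and DMSO is the solvent control. All 12 cultures were wild-type C57BL/6 cells from male E13.5 embryos, grown in DMEM medium with 10% fetal bovine serum under 3% O2 and 5% CO2, so treated and control cells share the low oxygen. The labels do not say whether replicates came from separate embryos, so the p-values measure the spread between these cultures. The first question was whether cells given the compound showed a response of the NRF2 pathway, of the aryl hydrocarbon receptor or of the efflux pumps, and the next was how the same genes differed with time in culture.

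As background, NRF2 (gene Nfe2l2) is a transcription factor that KEAP1 marks for degradation in unstressed cells. Reactive compounds modify KEAP1, NRF2 then enters the nucleus, and with small MAF proteins it binds antioxidant response elements at genes for glutathione synthesis, thioredoxin, quinone reduction, iron storage and NADPH supply. The aryl hydrocarbon receptor is a sensor in the cytoplasm that, once a flat aromatic ligand binds it, moves to the nucleus with ARNT and turns on cytochrome P450 genes such as Cyp1a1 and Cyp1b1. Efflux pumps of the ABC family carry foreign compounds and conjugates out of the cell. Both sensors act first through protein stability and location, so mRNA of their target genes, rather than of the sensors, is the usual readout of their activity.

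Library totals ranged from 7313007 to 26019167 counts. Markers of fibroblasts summed to 32010 to 53350 CPM (counts scaled by library size and TMM factors) over 11 genes in every library. The macrophage markers (9 genes) summed to 4.97 to 9.09 CPM, the endothelial markers (6 genes) to 2.28 to 7.93 CPM, and the epithelial markers (6 genes) to 14.6 to 31.3 CPM. Hepatocyte markers reached at most 0.231 CPM, and 3 of the 5 (Ttr, Cyp3a11 and Afp) had no count in any library. Libraries 1 and 2 of DMSO 240 h stood apart from the rest. Their 21 markers of the B lineage summed to 22.4 and 24.7 CPM, and Xist, a transcript of female cells, had 5.24 and 4.48 CPM. Library 3 of that group had 2.24 CPM of B-lineage markers and 0.281 CPM of Xist. In the other 3 groups the B-lineage sum was 1.84 to 4.51 CPM (WM-2474 240 h), 0.938 to 1.43 CPM (WM-2474 96 h) and 2.37 to 4.57 CPM (DMSO 96 h), and Xist was at most 0.924 CPM. Ms4a1 was the one B-lineage marker at 0 in every library. In bulk RNA, fewer cells of a type and less RNA per cell cannot be told apart. For comparisons that use DMSO 240 h, the count of calls without libraries 1 and 2 of that group is given, with the value for each gene whose call ended or whose WM-2474 and DMSO libraries did not overlap at 240 h.

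The promoters show which members carry sites of the 2 sensors near their start. In the RefSeq promoter sequences of GRCm38.p6, which run from 250 bases before to 50 bases after each start site, 34 of the 42 genes had an entry. Abcc1, Ahr, Aldh3a1, Gclc, Gsr, Gsta4, Hmox1 and Prdx6 had none and were not searched. The core of the antioxidant response element, TGACNNNGC on either strand, was present in 11 of these 34 genes (32.4%), against 14.0% of all genes in the table, and in 26.2% of the 42 promoter entries of these genes, against 12.4% of all 32851 promoters. The core site of the aryl hydrocarbon receptor, TNGCGTG on either strand, was present in 3 of 34 genes (8.82%), against 5.84% of all genes, and in 7.14% of the entries, against 5.07% of all promoters. The windows below show each match in capitals, written along the strand of the gene, so that a match on the other strand reads GCNNNGTCA or CACGCNA. The match of Prdx1 also contains TGAGTCA, the binding site of AP-1 factors, and the other matches contain no such site. A match describes letters and does not show binding, and a gene without one may be reached from further away.
Nfe2l2 (chr2:75704887-75704911, minus strand): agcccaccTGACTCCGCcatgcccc
Srxn1 (chr2:152105544-152105568, plus strand): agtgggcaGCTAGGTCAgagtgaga
Gstm5 (chr3:107895804-107895828, plus strand): ccgcccacTGACCACGCggagggcg
Gclm (chr3:122245415-122245439, plus strand): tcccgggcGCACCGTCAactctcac
Prdx1 (chr4:116685458-116685482, plus strand): gggaaagcGCTGAGTCAtcccccgt
Pgd (chr4:149166063-149166087, minus strand): ttcagagcTGACATTGCactgatcg
Abcb1a (chr5:8567109-8567133, plus strand): ctttgtccGCGGAGTCAgacagaac
Txnrd1 (chr10:82859106-82859130, plus strand): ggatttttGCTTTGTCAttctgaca
Sod1 (chr16:90220698-90220722, plus strand): caaggtggGCGTGGTCAgactcagg
Pgd, receptor site (chr4:149166733-149166755, minus strand): agacccaaTAGCGTGgggcatcg
Ftl1, receptor site (chr7:45459919-45459941, minus strand): ctccgcctCACGCCAccgccgat
Ahrr, receptor site (chr13:74292346-74292368, minus strand): ggggcggcTCGCGTGctggggtg

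Mgst1 and G6pdx, whose mRNA was lower at 240 h than at 96 h under both treatments (values further on), carry the other matches to the antioxidant core, 56 and 57 bases before their starts. The core of Mgst1 lies in 1 of its 2 promoter entries. That of Pgd, which was lower in the same way, also lies in 1 of its 2 entries and begins 3 bases after that start. For Mgst1 and G6pdx the whole entry that holds the core is shown. They are the 2 genes lower under both treatments with an antioxidant core before the start. Among the other genes with this core, Gclm, Gstm5, Nfe2l2, Prdx1, Srxn1 and Txnrd1 passed the time test under neither treatment. Abcb1a and Sod1 passed as lower with WM-2474 only.
Mgst1 (chr6:138140277-138140576, plus strand): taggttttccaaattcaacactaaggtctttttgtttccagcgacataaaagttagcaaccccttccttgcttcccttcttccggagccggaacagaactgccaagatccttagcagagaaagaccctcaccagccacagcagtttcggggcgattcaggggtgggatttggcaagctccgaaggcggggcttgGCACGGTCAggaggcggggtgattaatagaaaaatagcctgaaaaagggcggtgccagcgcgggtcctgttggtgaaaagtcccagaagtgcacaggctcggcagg
G6pdx (chrX:74428831-74429130, minus strand): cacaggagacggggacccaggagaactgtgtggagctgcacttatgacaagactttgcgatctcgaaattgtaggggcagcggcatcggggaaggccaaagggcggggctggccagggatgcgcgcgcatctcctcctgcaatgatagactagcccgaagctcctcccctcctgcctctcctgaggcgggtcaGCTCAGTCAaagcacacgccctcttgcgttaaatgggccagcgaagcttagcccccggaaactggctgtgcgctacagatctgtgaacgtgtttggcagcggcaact
The presence of a site was not set against any time difference in a test.

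The 42 genes covered a wide range of levels. Per exon length, in RPKM (counts scaled by library size and exon length) in the DMSO 96 h libraries, the ferritin subunits were highest, with 628 ± 22 for the heavy chain Fth1 and 525 ± 6.3 for the light chain Ftl1 (SD, n = 3). They were followed by Gpx1, the cytosolic glutathione peroxidase (219 ± 5.4 RPKM), the thioredoxin Txn1 (176 ± 8.0) and the copper-zinc superoxide dismutase Sod1 (161 ± 8.2). Hmox1, the haem oxygenase, had 57.8 ± 3.2 RPKM, and Nfe2l2 itself 42.0 ± 2.4 RPKM. Nqo1, the quinone reductase that is a standard NRF2 readout, had 13.0 ± 1.6 RPKM. The cystine importer Slc7a11 was at 1.38 ± 0.14 RPKM, and the receptor repressor Ahrr at 0.421 ± 0.070 RPKM. Among the pumps, Abcc1 had 26.2 ± 0.97 RPKM, Abcg2 17.2 ± 0.80 RPKM, Abcb1b 4.53 ± 0.40 RPKM and Abcb1a 0.270 ± 0.081 RPKM. The SDs show that neighbours such as Pgd and Tkt (131 RPKM each), or Gstp1 and Txnrd1 (63.2 ± 1.8 and 63.1 ± 2.7 RPKM), did not differ beyond their spread.

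**Figure D1:**
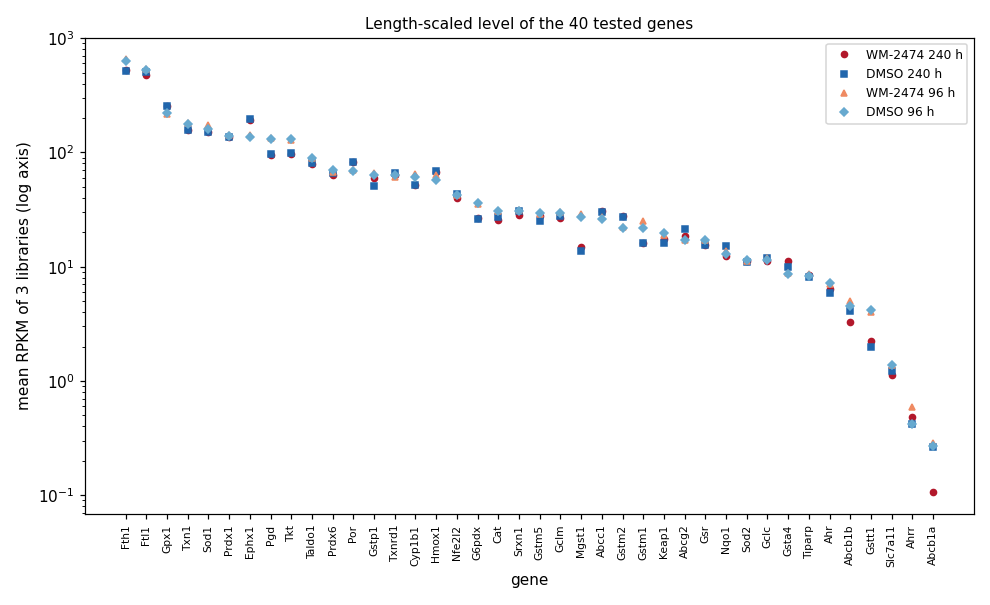
Mean RPKM of 3 libraries on a log axis for the 40 tested genes, ordered by their level in DMSO 96 h, with a marker for each of WM-2474 240 h, DMSO 240 h, WM-2474 96 h and DMSO 96 h. In DMSO 96 h the levels run from 0.270 RPKM for Abcb1a to 628 RPKM for Fth1, and Abcb1a in WM-2474 240 h is the lowest point.

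Cyp1a1, a strongly inducible target of the aryl hydrocarbon receptor, had no count in 12 of 12 libraries. Over the 150609096 counts of all libraries together, a count of 0 allows up to 0.0199 CPM, for counting error only. Aldh3a1, an aldehyde dehydrogenase that the receptor also induces, had 18 counts in all, at most 5 in a library, and 2 libraries had none. Neither gene passed the filter on low counts, so 40 of the 42 genes were tested. Cyp1b1, the cytochrome of the same family that mesenchymal cells express, had 60.7 ± 4.9 RPKM in DMSO 96 h, and Cyp1a2 had no count in any library.

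With WM-2474 for 240 h, none of the 40 tested genes passed the test against DMSO in either direction (edgeR quasi-likelihood F test, Benjamini-Hochberg adjustment over 13499 genes, threshold 0.05). Over all tested genes 0.0296% passed, all of them higher. By DESeq2 and by limma-voom the count among the 40 genes was also 0, although DESeq2 gave an adjusted p to 21 of them only. At an unadjusted p under 0.05 each of the 3 tools had 5 genes (12.5%), against 8.14% of all tested genes by edgeR, 5.16% by DESeq2 and 8.56% by limma-voom. The median log2 fold change was -0.01, against 0.00 over all tested genes, with 15 values above and 25 below 0. The smallest adjusted p was 0.48, for Gstp1. For 36 of the 40 genes the 95% interval lay within a 1.5-fold difference in either direction, and the exceptions were Abcb1a, Ahr, Ahrr and Gstt1. Within 2-fold lay 39 genes, all but Abcb1a.

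NRF2 and its inhibitor differed by less than the test could call at 240 h. Nfe2l2 had 91.1, 105 and 96.7 CPM with WM-2474 for 240 h, against 110.3, 110.3 and 97.5 CPM with DMSO (log2 fold change -0.11 ± 0.07, SE, adjusted p = 0.698 by edgeR). Keap1 had 82.7, 73.1 and 80.3 CPM with WM-2474 and 69.6, 75.5 and 70.7 CPM with DMSO (0.13 ± 0.06, adjusted p = 0.621). The groups overlapped for both genes. Without both DMSO libraries with B-lineage transcripts the value of Nfe2l2 was 0.00 and that of Keap1 0.15 (edgeR adjusted p = 0.999 and 0.994).

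For the 12 NRF2 target enzymes the median log2 value at 240 h was -0.05, with 2 values above and 10 below 0, and 0 passed. Without both DMSO libraries with B-lineage transcripts 5 of the 12 values were below 0. Nqo1 had 19.4, 20.2 and 18.4 CPM with WM-2474, against 24.8, 25.7 and 21.04 CPM with DMSO. All 3 WM-2474 libraries were below all 3 DMSO libraries, and the 2 highest values were those of the DMSO libraries with B-lineage transcripts. The log2 fold change was -0.26 ± 0.10 (edgeR adjusted p = 0.534), and -0.12 without those 2 libraries (adjusted p = 0.994). Hmox1, a gene that inducers of NRF2 raise, had 108.4, 111.0 and 98.7 CPM with WM-2474, against 107.9, 123.0 and 96.5 CPM with DMSO (-0.02 ± 0.07, interval -0.18 to 0.13). Gclm, the regulatory subunit of the enzyme that starts glutathione synthesis, had 36.1, 41.8 and 39.2 CPM with WM-2474 and 45.3, 36.1 and 41.7 CPM with DMSO (-0.07 ± 0.08). Txnrd1, the cytosolic thioredoxin reductase, had 233.1, 269.0 and 254.6 CPM with WM-2474 and 250.0, 295.1 and 252.3 CPM with DMSO (-0.07 ± 0.06). Slc7a11 had 9.87, 9.13 and 12.4 CPM with WM-2474 and 10.3, 12.1 and 11.5 CPM with DMSO (-0.14 ± 0.14). Except for Nqo1, the libraries of both groups overlapped for every enzyme of this list. The 4 enzymes of the pentose phosphate pathway, which supply NADPH, lay between -0.04 and 0.01 on the log2 scale, and the 6 superoxide and peroxide enzymes between -0.07 and 0.06.

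Of the 7 glutathione transferases, which attach glutathione to reactive compounds, 5 had values above 0 at 240 h and 0 passed. Gstp1 had 44.2, 44.98 and 45.2 CPM with WM-2474, against 39.2, 33.8 and 41.2 CPM with DMSO. The groups did not overlap, and the log2 fold change was 0.21 ± 0.07 (edgeR adjusted p = 0.48). Without both DMSO libraries with B-lineage transcripts it was 0.12 (adjusted p = 0.994). Gstp1 shared 38.5% of its 31-base words with the neighbouring Gstp2, so reads may have been split between both genes. Gsta4, which acts on lipid peroxidation products, had 11.4, 10.9 and 9.82 CPM with WM-2474 and 9.34, 9.64 and 9.42 CPM with DMSO (0.18 ± 0.13, adjusted p = 0.738), also without overlap, and its value was 0.19 without those libraries (adjusted p = 0.994).

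The aryl hydrocarbon receptor and its targets had values between -0.02 and 0.27 at 240 h, and 0 of 5 tested passed. Ahr, the receptor, had 36.3, 38.7 and 29.4 CPM with WM-2474 and 34.1, 35.8 and 26.2 CPM with DMSO (0.19 ± 0.23). Over the 23 alternatives this value of Ahr ran from 0.00 to 0.42, and the highest was the value without both DMSO libraries with B-lineage transcripts. Cyp1b1 had 254.3, 270.6 and 267.7 CPM with WM-2474, against 253.1, 288.3 and 253.8 CPM with DMSO. Its log2 fold change was 0.00 with an SE of 0.07, and the interval ran from -0.14 to 0.14. Tiparp, an ADP-ribosyltransferase that the receptor induces and that restrains it, had 35.3, 35.5 and 35.2 CPM with WM-2474 and 33.5, 31.8 and 36.0 CPM with DMSO (0.05 ± 0.07, interval -0.11 to 0.20). Ahrr had 1.95, 2.59 and 2.31 CPM with WM-2474 and 1.98, 2.31 and 1.72 CPM with DMSO (0.27 ± 0.25). The groups overlapped for each of these genes.

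Of the 4 efflux pumps, 3 were lower in each WM-2474 library than in every DMSO library at 240 h, and none passed the test. Abcb1a and Abcb1b encode the mouse P-glycoproteins. Abcb1a had 4, 9 and 4 counts (0.434, 0.685 and 0.462 CPM) with WM-2474, against 12, 10 and 23 counts (1.70, 1.36 and 0.922 CPM) with DMSO. These counts are close to the floor of 3 counts per library, and the log2 fold change of -1.10 ± 0.42 had an interval from -1.95 to -0.24 (edgeR adjusted p = 0.522). Abcb1b had 12.3, 15.1 and 15.4 CPM with WM-2474 and 17.4, 19.0 and 16.6 CPM with DMSO (-0.29 ± 0.11, adjusted p = 0.52). Abcg2, the breast cancer resistance protein, had 45.9, 44.98 and 48.8 CPM with WM-2474 and 51.6, 56.3 and 52.1 CPM with DMSO (-0.20 ± 0.07, adjusted p = 0.522). Abcc1, a pump for glutathione conjugates, had 170.0, 191.3 and 183.5 CPM with WM-2474 and 183.3, 179.6 and 175.1 CPM with DMSO, with overlap (0.02 ± 0.05). Without both DMSO libraries with B-lineage transcripts the values were -0.75 for Abcb1a, -0.21 for Abcb1b and -0.17 for Abcg2, with an adjusted p of 0.994 each. Abcb1a shared 23.3% of its 31-base words with other genes, mostly with Abcb1b, so the pair is not fully separate in the counts. In all, 4 of the 40 genes were lower without overlap (10.0%, against 6.72% of all tested genes) and 2 were higher (5.0%, against 7.57%).

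**Figure D2:**
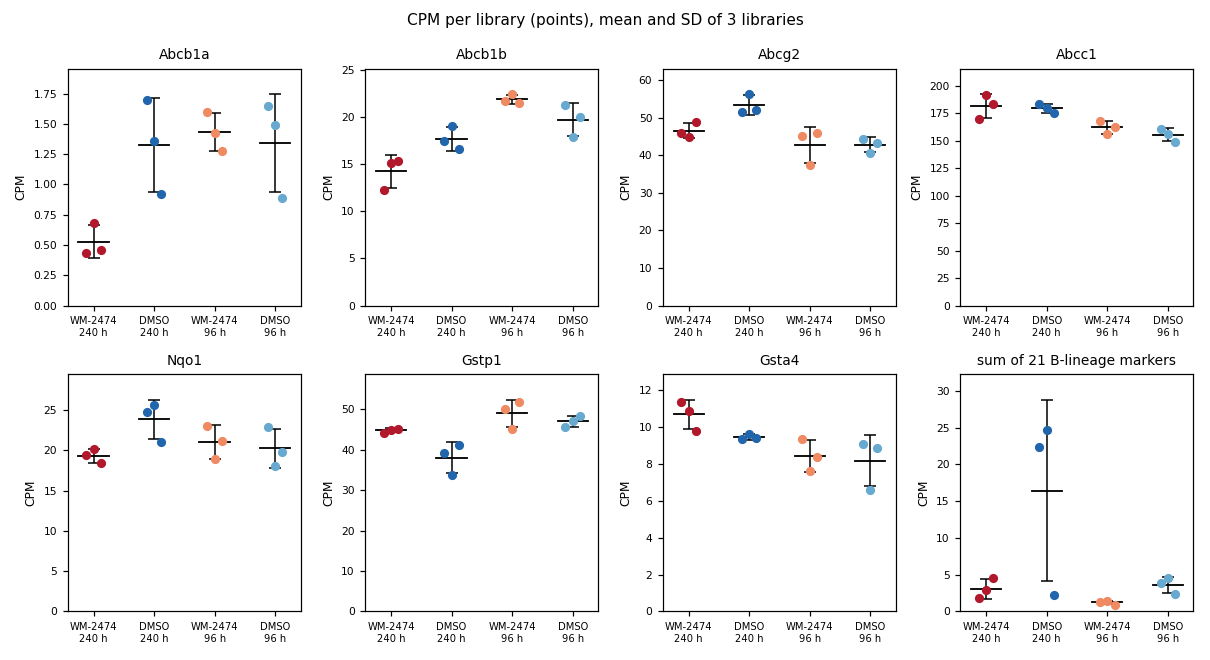
CPM per library of Abcb1a, Abcb1b, Abcg2, Abcc1, Nqo1, Gstp1 and Gsta4 and the summed CPM of 21 B-lineage markers, in the groups WM-2474 240 h, DMSO 240 h, WM-2474 96 h and DMSO 96 h (points are libraries, lines the mean and SD of 3). Abcb1a lies at 0.434 to 0.685 CPM with WM-2474 for 240 h, below the 0.922 to 1.70 CPM of DMSO 240 h, and 2 DMSO 240 h libraries hold 22.4 and 24.7 CPM of B-lineage markers.

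With WM-2474 for 96 h, 0 of the 40 genes passed in either direction, and 0% of all tested genes did (edgeR, adjusted p = 1 for each of the 40). At an unadjusted p under 0.05 edgeR and limma-voom had 2 genes each (5.0%), against 2.1% and 2.96% of all tested genes, and DESeq2 had 0, against 0.807%. The median log2 fold change was 0.03, against 0.00 over all tested genes, with 29 values above and 11 below 0. For 38 of 40 genes the interval lay within 1.5-fold, with Abcb1a and Ahrr outside. Ahrr had 2.99, 2.52 and 2.82 CPM with WM-2474, against 1.83, 2.37 and 1.77 CPM with DMSO, without overlap (0.50 ± 0.22, interval 0.04 to 0.96). Receptor sites lie in the promoters of Ahrr, Pgd and Ftl1 (shown above). In a fit with replicate numbers as a block within each time, the log2 values were 0.50 for Ahrr, 0.03 for Pgd and 0.04 for Ftl1. A link between these sites and the treatment values was not tested. Cyp1b1 had 304.0, 360.6 and 326.3 CPM with WM-2474 and 285.5, 336.0 and 313.0 CPM with DMSO (0.09 ± 0.07), and Tiparp had 37.6, 33.3 and 36.0 CPM with WM-2474 and 36.2, 34.7 and 32.1 CPM with DMSO (0.06 ± 0.07).

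For the NRF2 target enzymes the median log2 value at 96 h was 0.03, with 11 of 12 values above 0 and a range from -0.05 to 0.13. Hmox1 was the highest value of the list, with 97.5, 106.1 and 95.2 CPM with WM-2474 and 86.9, 96.7 and 89.9 CPM with DMSO (0.13 ± 0.07), and the groups overlapped. Within replicate numbers, which were read as pairs at 96 h, Hmox1 was higher with WM-2474 in 3 of 3 pairs. With the pairs as a block within each time its unadjusted p was 0.00759 (edgeR adjusted p = 0.999). Ephx1, Fth1, Nqo1 and Txn1 of this list were also higher in all 3 pairs. Their unadjusted p in that edgeR fit was 0.0874, 0.188, 0.512 and 0.443. Txnrd1, lower in all 3 pairs, had 0.189. Nqo1 had 23.1, 18.9 and 21.2 CPM with WM-2474 and 22.9, 18.1 and 19.7 CPM with DMSO (0.05 ± 0.10). Txnrd1 had 251.5, 245.4 and 237.4 CPM with WM-2474 and 265.9, 246.6 and 248.2 CPM with DMSO. Slc7a11 had 11.36, 14.69 and 12.54 CPM with WM-2474 and 11.85, 14.22 and 12.12 CPM with DMSO. Nfe2l2 had 113.4, 102.9 and 98.77 CPM with WM-2474 and 110.4, 99.48 and 100.9 CPM with DMSO. In the fit with the block within each time, the log2 values were -0.05 for Txnrd1, 0.009 for Slc7a11 and 0.02 for Nfe2l2. Those of Gstp1 and Ahr were 0.06 and -0.01. Gstm1, a mu-class transferase, had 36.3, 29.1 and 32.5 CPM with WM-2474 and 27.9, 26.9 and 29.9 CPM with DMSO, with overlap (0.21 ± 0.10). Abcb1b had 21.7, 22.4 and 21.5 CPM with WM-2474 and 21.3, 17.8 and 20.0 CPM with DMSO (0.14 ± 0.09), above every DMSO library. Abcb1a had 24, 17 and 15 counts with WM-2474 and 28, 17 and 12 counts with DMSO (0.09 ± 0.30). Sod1 had 111.4, 109.6 and 114.1 CPM with WM-2474 and 102.9, 99.4 and 109.9 CPM with DMSO (0.10 ± 0.05). Among the lower values, Keap1 had 81.1, 91.7 and 83.0 CPM with WM-2474 and 85.4, 87.0 and 94.9 CPM with DMSO (-0.06 ± 0.06). Prdx6 had 164.0, 151.4 and 156.0 CPM with WM-2474 and 158.6, 157.5 and 170.6 CPM with DMSO (-0.05 ± 0.05), and the groups overlapped for these 3 genes. Ahrr and Abcb1b were the 2 genes without overlap, both higher (5.0% of the 40 genes, against 3.63% of all tested genes), and 0 were lower, against 3.82%. Counted by pairs, 10 of the 40 genes were higher with WM-2474 in all 3 pairs (against 13.3% of all tested genes). They were Abcb1b, Ahrr, Cyp1b1, Ephx1, Fth1, Gstm1, Hmox1, Nqo1, Sod1 and Txn1, and Txnrd1 was the 1 gene lower in all 3 (2.5%, against 13.4%). With the block within each time 0 of the 40 genes passed at 96 h, and 5 had an unadjusted p under 0.05 (12.5%, against 4.41% of all tested genes).

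**Figure D3:**
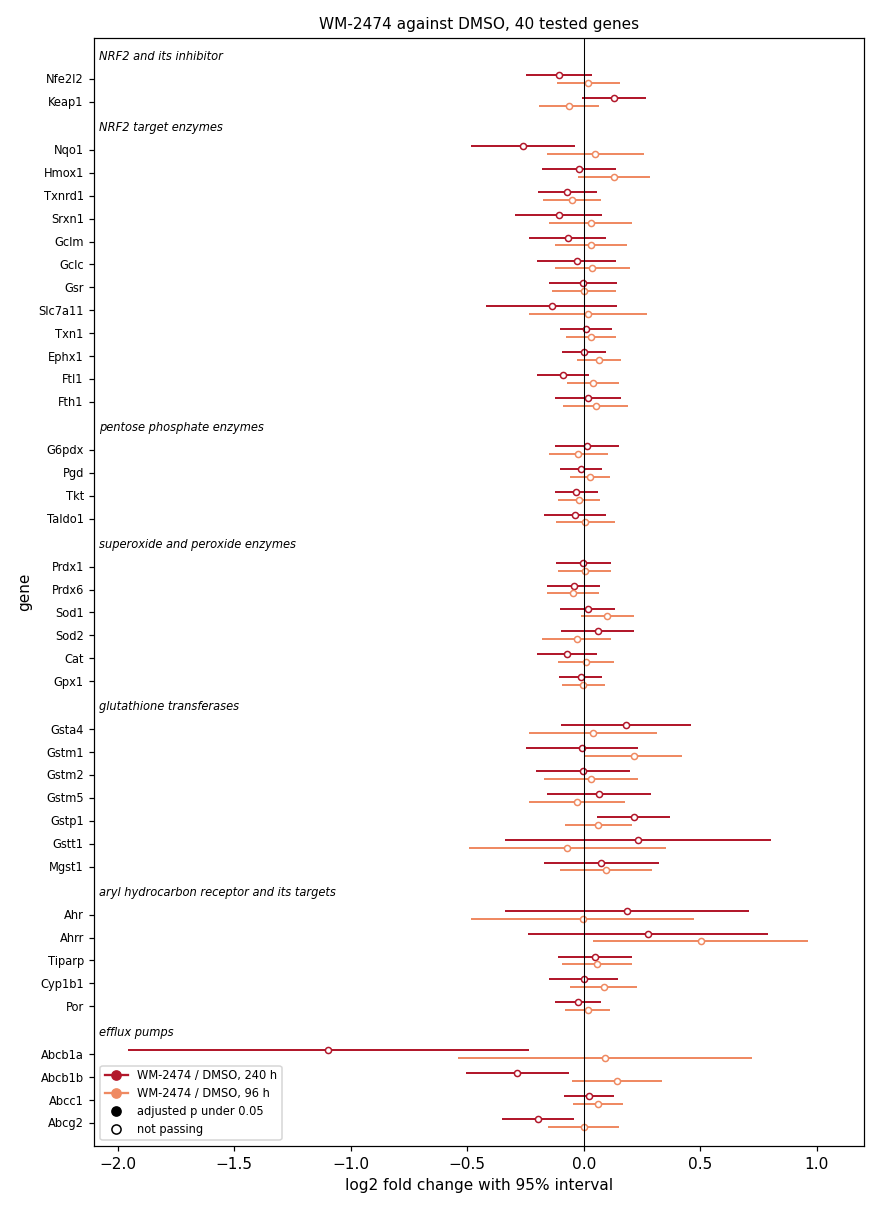
Log2 fold change of WM-2474 over DMSO with its 95% interval for the 40 tested genes, by role, at 240 h and at 96 h. None passed the adjusted test at either time, and the widest interval at 240 h is that of Abcb1a, from -1.95 to -0.24.

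Averaged over both times, 0 of the 40 genes passed, against 0.0148% of all tested genes, and by DESeq2 and limma-voom the count was 0 as well. At an unadjusted p under 0.05 there were 2 genes by edgeR, 1 by DESeq2 and 2 by limma-voom (5.0%, 2.5% and 5.0%), against 5.65%, 3.45% and 5.77% of all tested genes. The median of the 40 log2 values was 0.00, and all 7 glutathione transferases had values above 0, from 0.01 to 0.14 for Gstp1 (edgeR adjusted p = 0.766), but 2 of the 7 were below 0 without both DMSO 240 h libraries with B-lineage transcripts. The effects of the compound at the 2 times were also tested against each other. For that difference 0 of 40 genes passed, against 0% of all tested genes, and unadjusted p-values under 0.05 came to 4 by edgeR, 1 by DESeq2 and 4 by limma-voom (10.0%, 2.5% and 10.0%), against 4.64%, 2.2% and 5.96% of all tested genes. Abcb1b, lower without overlap at 240 h and higher without overlap at 96 h, had a difference of -0.43 ± 0.14 (edgeR adjusted p = 0.977). That of Abcb1a was -1.19 ± 0.52 and that of Nqo1 -0.31 ± 0.14, with the same adjusted p. All 12 NRF2 target enzymes and all 4 pumps had a difference below 0, as did 31 of the 40 genes (77.5%), against 49.3% of all tested genes. These values share the 12 libraries and are not independent. Without both DMSO 240 h libraries with B-lineage transcripts 28 of the 40 genes and 8 of the 12 enzymes were below 0, and Fth1, Gclc, Hmox1 and Txnrd1 were above it.

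The other genes of these pathways gave the same count. Of 95 such genes in 7 lists (NRF2 partners, further NRF2 targets, glutathione and thioredoxin enzymes, receptor partners, conjugating enzymes, oxidising and reducing enzymes, and other transporters) 82 were tested. None passed at 240 h, at 96 h, in the average or in the difference (edgeR, DESeq2 and limma-voom). At 240 h DESeq2 gave an adjusted p to 29 of the 82 only. At an unadjusted p under 0.05 the counts by edgeR, DESeq2 and limma-voom were 6, 4 and 6 at 240 h (7.32%, 4.88% and 7.32%, against 8.14%, 5.16% and 8.56% of all tested genes). At 96 h they were 1, 0 and 2 (1.22%, 0% and 2.44%, against 2.1%, 0.807% and 2.96%). For the average they were 5, 4 and 5 (6.1%, 4.88% and 6.1%, against 5.65%, 3.45% and 5.77%). For the difference they were 1, 0 and 1 (1.22%, 0% and 1.22%, against 4.64%, 2.2% and 5.96%). The median log2 value of the 82 genes was 0.01 at 240 h and -0.02 at 96 h.

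Time in culture gave larger differences. From the comparison of 240 h with 96 h, 5 of the 40 genes were higher and 15 were lower with WM-2474 (12.5% and 37.5%), against 15.9% and 14.8% of all tested genes. With DMSO, 7 were higher and 12 were lower (17.5% and 30.0%), against 17.5% and 17.3%. The median log2 value was -0.14 with WM-2474 and -0.09 with DMSO, against 0.00 with WM-2474 and -0.01 with DMSO over all tested genes. Higher under both treatments were Abcc1, Ephx1, Gpx1, Gstm2 and Por (5 genes). Lower under both were Cat, Cyp1b1, Fth1, G6pdx, Gstm1, Gstt1, Mgst1, Pgd, Tkt and Txn1 (10 genes), and 16 genes passed under neither. Without both DMSO 240 h libraries with B-lineage transcripts, 4 of the 19 calls with DMSO ended, those of Abcc1, Gstp1, Hmox1 and Txn1. The log2 values of the other 15 were 0.893 to 1.28 times those over all libraries. Of the 20 calls with WM-2474, which use these libraries only for the shared spread and scaling, that of Taldo1 ended. The 8 cell cycle genes followed as a check were lower at 240 h under both treatments. They summed to 609 to 673 CPM in WM-2474 240 h, 689 to 719 CPM in DMSO 240 h, 899 to 944 CPM in WM-2474 96 h and 889 to 950.0 CPM in DMSO 96 h, and their part in the time differences was not tested. Fibroblast markers summed to 51470 to 53350 CPM in WM-2474 240 h, 48730 to 50240 CPM in DMSO 240 h, 32010 to 37700 CPM in WM-2474 96 h and 32390 to 37890 CPM in DMSO 96 h. The low epithelial sums were lower at 240 h, at 14.9 to 16.6 CPM in WM-2474 240 h and 14.6 to 17.5 CPM in DMSO 240 h, against 24.4 to 31.3 CPM in WM-2474 96 h and 27.8 to 29.6 CPM in DMSO 96 h. Endothelial markers were at 2.28 to 3.70 CPM in WM-2474 240 h and 3.73 to 4.81 CPM in DMSO 240 h, against 6.30 to 7.93 CPM in WM-2474 96 h and 5.09 to 7.25 CPM in DMSO 96 h. Macrophage markers were at 4.97 to 7.91 CPM in WM-2474 240 h and 6.08 to 6.11 CPM in DMSO 240 h, against 7.14 to 8.53 CPM in WM-2474 96 h and 8.37 to 9.09 CPM in DMSO 96 h. The part of these markers in the time differences was not tested.

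These directions are relative to the other genes of each library. Scaled by library totals in place of TMM factors, the median of all tested genes moved by -0.134 with WM-2474 and -0.123 with DMSO. On that scale 1 gene was higher and 24 were lower with WM-2474, and 4 were higher and 22 lower with DMSO, and of all calls 20.0% and 21.4% were higher, against 51.7% and 50.4% with TMM factors. The calls that ended with library totals were those of Abcc1, Gpx1, Gstm2 and Por with WM-2474 and of Abcc1, Gstm2 and Hmox1 with DMSO. No gene that passed changed its sign. Without WM-2474 96 h replicate 2 the number of higher genes with WM-2474 was 3.

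The pentose phosphate enzymes were lower at 240 h in 4 of 4 genes with WM-2474 and in 3 of 4 with DMSO (100% and 75%). Of all tested genes, 14.8% were lower with WM-2474 and 17.3% with DMSO. Pgd, the phosphogluconate dehydrogenase that yields NADPH, had 211.5, 213.1 and 211.9 CPM in WM-2474 240 h, against 299.7, 296.7 and 296.1 CPM in WM-2474 96 h. With DMSO it had 217.9, 215.0 and 209.6 CPM at 240 h, against 291.2, 288.3 and 297.1 CPM at 96 h. The log2 fold change was -0.49 ± 0.04 with WM-2474 and -0.45 ± 0.04 with DMSO (edgeR adjusted p = 6.72e-10 with WM-2474 and 2.88e-09 with DMSO). Pgd also had the smallest replicate spread of the 40 genes, a coefficient of variation of 1.13%, against a median of 5.92% over the genes and 7.02% over all tested genes. Tkt, the transketolase, had 310.5, 307.0 and 317.0 CPM in WM-2474 240 h, against 396.7, 420.4 and 423.3 CPM in WM-2474 96 h (-0.41 ± 0.04). In the DMSO cultures it had 318.7, 313.0 and 323.8 CPM at 240 h, against 410.9, 418.1 and 428.0 CPM at 96 h (-0.39 ± 0.04). G6pdx, the X-linked glucose-6-phosphate dehydrogenase that opens the pathway, had 70.7, 61.9 and 75.7 CPM in WM-2474 240 h, against 95.3, 90.9 and 88.9 CPM in WM-2474 96 h (-0.41 ± 0.06). Under DMSO the gene had 66.1, 67.3 and 70.6 CPM at 240 h, against 94.5, 95.4 and 90.04 CPM at 96 h (-0.45 ± 0.06). For Pgd, Tkt and G6pdx no library at 240 h reached a library at 96 h. Such separation by time was common among the 40 genes. With WM-2474, 17 genes were lower and 6 were higher at 240 h without overlap, and with DMSO 14 were lower and 6 higher. The share over all tested genes is not given for time, so the separation alone does not set these genes apart. The same limit holds for Mgst1 and Por below. Taldo1, the transaldolase, passed with WM-2474 (-0.17 ± 0.06, adjusted p = 0.0386) and had -0.12 ± 0.06 with DMSO (adjusted p = 0.119). The WM-2474 call ended under 8 of 22 alternatives. These were the fits without replicate 1 or 2 of WM-2474 240 h (adjusted p = 0.162 and 0.0718), without replicate 1 of WM-2474 96 h (0.268) or without both DMSO 240 h libraries with B-lineage transcripts (0.0525). The others were DESeq2 and limma-voom (0.0643 and 0.0861) and the compared libraries alone, without and with the replicate block (0.0523 and 0.0918).

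The glutathione transferases split by gene. Mgst1, a membrane-bound transferase, had 15.8, 13.6 and 12.6 CPM in WM-2474 240 h, against 28.2, 28.0 and 26.2 CPM in WM-2474 96 h. The DMSO cultures had 14.0, 11.3 and 13.9 CPM at 240 h, against 28.0, 22.0 and 26.8 CPM at 96 h. The groups did not overlap, and the log2 fold changes were -0.98 ± 0.11 and -0.96 ± 0.10 (edgeR adjusted p = 5.71e-08 with WM-2474 and 6.62e-08 with DMSO). Gstt1, a theta-class enzyme, had 2.39, 2.51 and 2.08 CPM in WM-2474 240 h and 3.65, 4.53 and 4.18 CPM in WM-2474 96 h (-0.80 ± 0.24, adjusted p = 0.012). With DMSO it had 2.83, 1.49 and 1.88 CPM at 240 h and 3.66, 3.51 and 5.77 CPM at 96 h (-1.10 ± 0.23, adjusted p = 0.000633). Gstm1 had 24.6, 17.2 and 20.8 CPM in WM-2474 240 h and 36.3, 29.1 and 32.5 CPM in WM-2474 96 h (-0.67 ± 0.11), and with DMSO 23.1, 19.3 and 20.3 CPM at 240 h and 27.9, 26.9 and 29.9 CPM at 96 h (-0.45 ± 0.11). Its near relative Gstm2 went the other way, with 32.6, 25.3 and 28.3 CPM in WM-2474 240 h and 24.1, 22.1 and 23.7 CPM in WM-2474 96 h (0.29 ± 0.10, adjusted p = 0.023, which was 0.154 without replicate 1 of WM-2474 240 h and 0.0878 without replicate 2 of WM-2474 96 h). With DMSO, Gstm2 had 30.7, 25.4 and 29.4 CPM at 240 h and 21.6, 21.3 and 25.7 CPM at 96 h (0.33 ± 0.09, adjusted p = 0.00884, and 0.0668 without DMSO 240 h replicate 3). Gstm1 shared 28.8% and Gstm2 12.2% of their 31-base words with other genes. Gstp1 fell with DMSO (-0.28 ± 0.07, adjusted p = 0.00305) and had -0.13 ± 0.07 with WM-2474 (adjusted p = 0.174). Without both libraries with B-lineage transcripts the DMSO value was -0.19 (adjusted p = 0.137).

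Among the 12 NRF2 target enzymes, 1 was higher and 3 were lower with WM-2474 (8.33% and 25%, against 15.9% and 14.8% of all tested genes). With DMSO, 2 were higher and 2 lower (16.7% each, against 17.5% and 17.3%), close to the shares of all tested genes. Ephx1, the microsomal epoxide hydrolase, had 330.2, 309.4 and 326.9 CPM in WM-2474 240 h, against 237.9, 230.7 and 246.7 CPM in WM-2474 96 h (0.43 ± 0.04, adjusted p = 1.86e-08). In the DMSO cultures it had 323.1, 324.1 and 319.4 CPM at 240 h, against 222.4, 226.2 and 234.7 CPM at 96 h (0.50 ± 0.04, adjusted p = 1.42e-09). Fth1 was lower, at -0.32 ± 0.07 with WM-2474 and -0.28 ± 0.07 with DMSO, and so was Txn1, at -0.18 ± 0.05 with WM-2474 and -0.16 ± 0.05 with DMSO. The Txn1 call with WM-2474 ended without WM-2474 240 h replicate 1 (adjusted p = 0.0534). That with DMSO ended without DMSO 240 h replicate 1 or 3 or DMSO 96 h replicate 1 (0.0949, 0.071 and 0.082). The DMSO call of Txn1 also ended without both libraries with B-lineage transcripts, where its log2 value was -0.167. Ftl1 passed with WM-2474 (-0.20 ± 0.05) and had -0.07 ± 0.05 with DMSO, and 57.7% of its 31-base words are shared, mostly with the pseudogene Ftl1-ps1. Hmox1 passed with DMSO (0.25 ± 0.07, adjusted p = 0.0126) and had 0.09 ± 0.07 with WM-2474, and without both libraries with B-lineage transcripts the DMSO value was 0.09 (adjusted p = 0.50). Its call also ended without DMSO 240 h replicate 2 or DMSO 96 h replicates 1 or 3 (adjusted p = 0.0906, 0.0717 and 0.0578), in limma-voom (0.0511) and with library totals (0.182). Nqo1, Txnrd1, Srxn1, Gclm, Gclc, Gsr and Slc7a11 passed under neither treatment. Nfe2l2 had -0.11 ± 0.07 with WM-2474 and 0.02 ± 0.07 with DMSO, and Keap1, at 85.4, 87.0 and 94.9 CPM in DMSO 96 h, passed with DMSO (-0.31 ± 0.06, adjusted p = 0.000329) and had -0.12 ± 0.06 with WM-2474 (adjusted p = 0.158).

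Of the superoxide and peroxide enzymes, Gpx1 rose and catalase fell under both treatments. Gpx1 had 265.2, 263.8 and 269.0 CPM in WM-2474 240 h, against 226.5, 222.6 and 235.5 CPM in WM-2474 96 h (0.22 ± 0.04, edgeR adjusted p = 0.000222). Under DMSO the gene had 268.9, 272.0 and 264.8 CPM at 240 h, against 225.2, 225.2 and 234.9 CPM at 96 h (0.23 ± 0.04, adjusted p = 0.000112). Cat, the peroxisomal catalase, averaged 65.5 ± 3.3 CPM in WM-2474 240 h and 78.8 ± 0.24 CPM in WM-2474 96 h (-0.27 ± 0.06), and 69.1 ± 3.6 CPM in DMSO 240 h and 78.3 ± 4.5 CPM in DMSO 96 h (-0.19 ± 0.06, and adjusted p = 0.113 and 0.0756 without DMSO 240 h replicate 3 or DMSO 96 h replicate 2). Sod1 passed with WM-2474 (-0.18 ± 0.05, and adjusted p = 0.0526 without WM-2474 240 h replicate 1) and had -0.09 ± 0.05 with DMSO. The mitochondrial Sod2 and the peroxiredoxins Prdx1 and Prdx6, which remove peroxides, had values between -0.09 and 0.00 and passed under neither.

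The receptor group and the pumps also had members in both directions. Por, the reductase that passes electrons to cytochrome P450 enzymes, had 201.7, 194.8 and 206.8 CPM in WM-2474 240 h, against 171.7, 169.9 and 173.1 CPM in WM-2474 96 h (0.23 ± 0.05). With DMSO, Por had 205.8, 201.0 and 206.1 CPM at 240 h, against 163.9, 167.4 and 177.5 CPM at 96 h (0.27 ± 0.05), so that no library at 96 h reached one at 240 h. Cyp1b1 fell, with a log2 value of -0.32 ± 0.07 with WM-2474 and -0.23 ± 0.07 with DMSO (edgeR adjusted p = 0.00112 with WM-2474 and 0.0108 with DMSO). Its DMSO call ended without DMSO 240 h replicate 3 or DMSO 96 h replicate 2 (adjusted p = 0.0613 and 0.0536). Ahr, Ahrr and Tiparp passed under neither treatment in the main fit. With DMSO, Ahr passed as lower with the replicate block over all libraries (-0.302, edgeR adjusted p = 0.0101). It also passed with the block in the compared libraries only (-0.299, adjusted p = 0.00406). Abcc1, given above for 240 h, had 167.6, 155.8 and 162.6 CPM in WM-2474 96 h and 160.5, 156.1 and 149.0 CPM in DMSO 96 h. It rose with time by 0.17 ± 0.05 with WM-2474 and by 0.21 ± 0.05 with DMSO. Its call with WM-2474 ended when replicate 2 of either WM-2474 group was left out (edgeR adjusted p = 0.105 and 0.077). The same call ended with the compared libraries and the block (edgeR adjusted p = 0.0575). The DMSO call of Abcc1 ended without both libraries with B-lineage transcripts, where its log2 value was 0.176. Abcg2 had 45.1, 37.4 and 46.0 CPM in WM-2474 96 h and 44.4, 40.6 and 43.3 CPM in DMSO 96 h, and passed with DMSO (0.31 ± 0.07, adjusted p = 0.00139) and had 0.12 ± 0.07 with WM-2474 (adjusted p = 0.254). Abcb1b had 12.3, 15.1 and 15.4 CPM in WM-2474 240 h, against 21.7, 22.4 and 21.5 CPM in WM-2474 96 h, and passed (-0.61 ± 0.10, adjusted p = 3.17e-05). The DMSO cultures had 17.4, 19.0 and 16.6 CPM at 240 h, against 21.3, 17.8 and 20.0 CPM at 96 h (-0.19 ± 0.10, adjusted p = 0.141). Abcb1a passed with WM-2474, at 4, 9 and 4 counts at 240 h against 24, 17 and 15 counts at 96 h (-1.39 ± 0.40, adjusted p = 0.0086), and had -0.20 ± 0.32 with DMSO. As given above, the difference between the treatments did not pass for either P-glycoprotein gene. Without both DMSO 240 h libraries with B-lineage transcripts it was -0.84 for Abcb1a and -0.36 for Abcb1b (edgeR adjusted p = 1 for each).

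**Figure D4:**
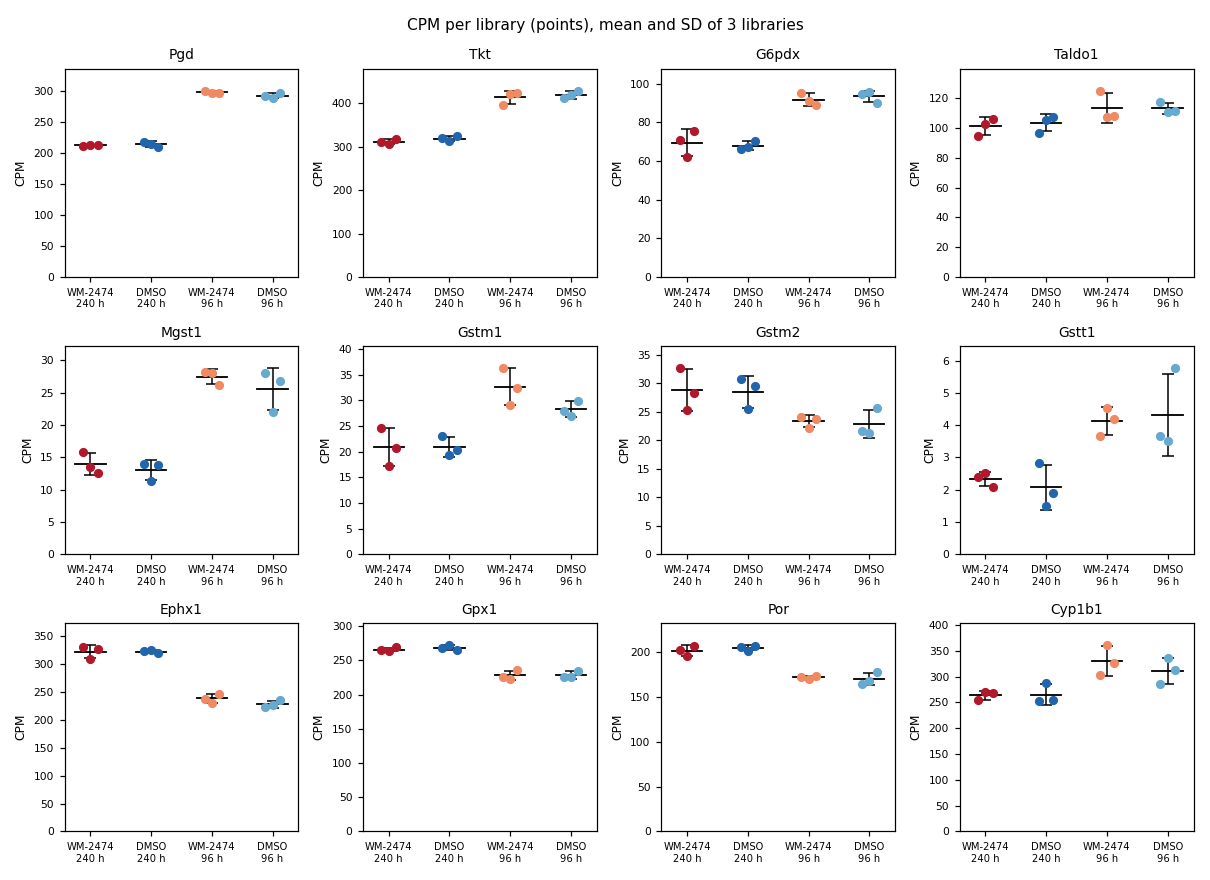
CPM per library of 12 genes in WM-2474 240 h, DMSO 240 h, WM-2474 96 h and DMSO 96 h (points are libraries, lines the mean and SD of 3, all axes from 0). Pgd lies at 209.6 to 217.9 CPM at 240 h and at 288.3 to 299.7 CPM at 96 h, and Ephx1 at 309.4 to 330.2 CPM at 240 h and at 222.4 to 246.7 CPM at 96 h.

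**Figure D5:**
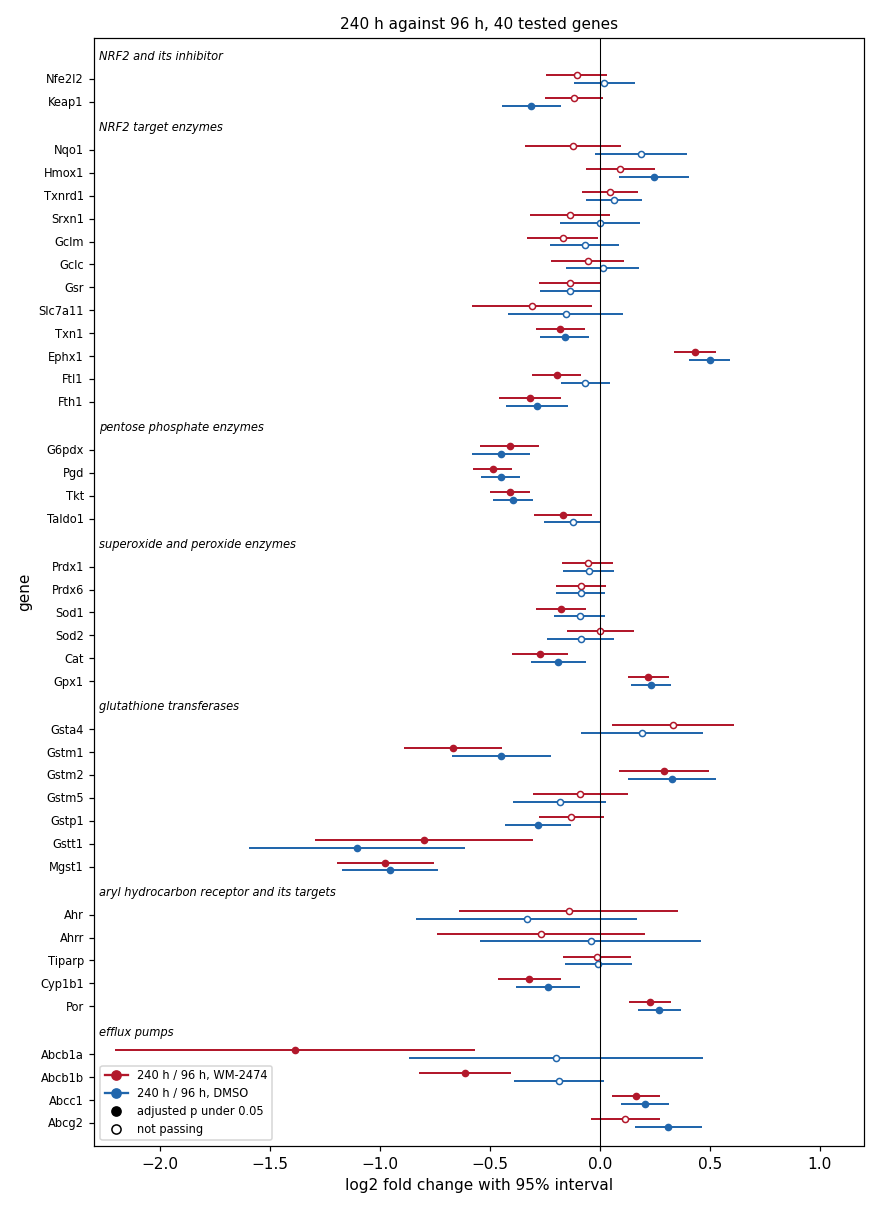
Log2 fold change of 240 h over 96 h with its 95% interval for the 40 tested genes, by role, with WM-2474 and with DMSO, filled where the adjusted p is under 0.05. The falls of Mgst1 (-0.98 with WM-2474 and -0.96 with DMSO) and of the pentose phosphate enzymes and the rises of Ephx1 (0.43 with WM-2474 and 0.50 with DMSO) are seen under both treatments.

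Of the 82 other pathway genes tested, 12 were higher and 14 lower at 240 h with WM-2474 (14.6% and 17.1%, against 15.9% and 14.8% of all tested genes), and 15 were higher and 15 lower with DMSO (18.3% each, against 17.5% and 17.3%). These shares are close to those of all tested genes. Of the 21 glutathione and thioredoxin enzymes tested, 6 were higher and 1 was lower with WM-2474 (28.6% and 4.76%), and 8 were higher and 3 lower with DMSO (38.1% and 14.3%). Gpx8, a peroxidase of the endoplasmic reticulum, rose by 0.35 ± 0.06 with WM-2474 and by 0.36 ± 0.06 with DMSO on the log2 scale. Glrx, the glutaredoxin, went down in the same list (-0.70 ± 0.10 with WM-2474 and -0.72 ± 0.10 with DMSO). Among further NRF2 targets Idh1, the cytosolic isocitrate dehydrogenase that also yields NADPH, averaged 155.0 ± 6.4 CPM in WM-2474 240 h and 250.2 ± 13 CPM in WM-2474 96 h, and 149.0 ± 3.7 CPM in DMSO 240 h and 259.0 ± 10.0 CPM in DMSO 96 h (-0.69 ± 0.05 with WM-2474 and -0.80 ± 0.05 with DMSO). Ugdh, which makes the sugar donor for glucuronidation, was lower as well (-0.57 ± 0.05 with WM-2474 and -0.46 ± 0.05 with DMSO), while the haem transporter Slc48a1 was higher (0.41 ± 0.05 with WM-2474 and 0.40 ± 0.05 with DMSO). Of the small MAF partners of NRF2, Mafk rose (0.52 ± 0.08 with WM-2474 and 0.43 ± 0.08 with DMSO) and Maff fell (-0.38 ± 0.08 with WM-2474 and -0.50 ± 0.07 with DMSO). Arnt2, a relative of the receptor's partner ARNT, averaged 10.7 ± 0.58 CPM in WM-2474 240 h and 24.0 ± 2.0 CPM in WM-2474 96 h (-1.16 ± 0.11), and 10.9 ± 1.4 CPM in DMSO 240 h and 22.9 ± 2.5 CPM in DMSO 96 h (-1.13 ± 0.11).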

How the data were processed

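Per the submitters' processing notes, the authors made raw counts per gene with featureCounts on mm10 and deposited them without normalization, and for the aligner, the annotation, strandedness and multiply mapped reads the settings are not given in the sources used here. Of 27179 table entries, 874 without an identifier (0.547% to 0.648% of counts) were left out, and 96.1% of the other 26305 were named with the RefSeq annotation of GRCm38.p6. The 42 genes and all lists were chosen with earlier results of these data known. Genes were filtered with filterByExpr, scaled with TMM factors and fitted over all 12 libraries with 1 term per group in edgeR 4.0.16 (R 4.3.3, robust quasi-likelihood F test, two-sided). Alternatives used limma-voom with sample quality weights (limma 3.58.1) and DESeq2 1.42.0, other scalings and filters, replicate blocks, and fits without single libraries. Script checks used simulated data.

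An exact permutation of 3 against 3 libraries cannot go below 0.1, so calls rest on the pooled model. Intervals are 95% intervals of the fit, and floors cover counting error only. No replicate pair was a duplicate (chi-square over its degrees of freedom, 2.02 to 4.99). Libraries with the same replicate number deviated together at 96 h (correlations 0.301, 0.235 and 0.191) and less so at 240 h (0.0971, 0.114 and 0.0397). The labels state no pairing. From these correlations, genes were counted by pairs at 96 h only. Fits with the replicate number as a block, at 96 h, at 240 h or across times, were alternatives to the main fit. Values after ± are SDs for CPM and RPKM and SEs for log2 fold changes. Genes given per library were taken by rule: sensors, standard targets and pumps under treatment, and the passing genes with the smallest p (up to 6 in each direction) or, where none passed, the 3 with the smallest p in each direction. For WM-2474 against DMSO at 96 h, Gstp1 and Ahr are given by their log2 values only. Gclm and further genes with means only were chosen after their values were seen.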

Additional observations from a re-analysis of the deposited data

How the results depend on the processing

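The 0 calls among the 40 genes for WM-2474 held at 240 h, at 96 h, in the average and in the difference under each of the 23 alternatives that gave a value for it. Scaled by library totals, the time counts moved to 1 higher and 24 lower with WM-2474 and to 4 higher and 22 lower with DMSO. The median of all tested genes moved as well, by -0.134 with WM-2474 and -0.123 with DMSO. Which scaling is closer to the content of the cells was not tested. Leaving out single libraries gave 3 to 6 higher and 12 to 17 lower with WM-2474, and 6 to 7 higher and 10 to 12 lower with DMSO. With the replicate block over all libraries the counts were 6 higher and 16 lower with WM-2474 and 7 higher and 13 lower with DMSO, and with the block in the compared libraries only, an alternative chosen after seeing the data, 4 and 14 with WM-2474 and 7 and 14 with DMSO. The block changed no call for the compound among the 40 genes. At 240 h, with the block within each time, 9 of the 40 had an unadjusted p under 0.05 (22.5%, against 13.3% of all tested genes). In that edgeR fit 142 of the 13499 tested genes passed as higher and 38 as lower. Gstp1 then had 0.229 (edgeR adjusted p = 0.071) and Nqo1 -0.293 (adjusted p = 0.0797). The sign changes among the genes named for the compound were in log2 values that did not pass, and their cause was not tested. Leaving out both DMSO 240 h libraries with B-lineage transcripts gave at 240 h 0.0026 for Nfe2l2, 0.137 for Hmox1, 0.000158 for Txnrd1, 0.0228 for Gstm1, -0.0268 for Tiparp and 0.0578 for Cyp1b1, in the average 0.0108 for Nfe2l2, and in the difference 0.00772 for Hmox1 and 0.0518 for Txnrd1. Limma-voom with sample quality weights gave 0.00737 for Hmox1 and 0.0209 for Cyp1b1 at 240 h, -0.00612 for Slc7a11 and 0.016 for Abcg2 at 96 h, and 0.00441 for Txnrd1 in the difference. Without a filter Cyp1b1 had 0.000229 at 240 h. Abcg2 at 96 h, which lay at 0, had 0.000741 with RLE factors, 0.000216 with a filter of over 1 CPM in 3 libraries, 0.000941 in DESeq2 and 0.000322 in the compared libraries only. With the replicate block it had 0.000117 over all libraries, 0.002 within each time and 0.00294 in the compared libraries only, while Gstm1 had 0.00325 at 240 h (block over all libraries) and the difference of Tiparp was 0.00167 (block within each time). Leaving out single libraries gave at 240 h -0.12 to 0.0677 for Hmox1, -0.121 to 0.00724 for Txnrd1, -0.142 to 0.134 for Gstm1 and -0.034 to 0.0604 for Cyp1b1. At 96 h it gave -0.0411 to 0.0698 for Nfe2l2, -0.0265 to 0.156 for Nqo1, -0.0897 to 0.107 for Slc7a11, -0.18 to 0.184 for Ahr, -0.134 to 0.302 for Abcb1a and -0.0508 to 0.0836 for Abcg2. The average of Ahr ran from -0.000826 to 0.183, and the difference from -0.0697 to 0.0586 for Txnrd1, from -0.0535 to 0.062 for Tiparp and from -0.0018 to 0.363 for Ahr. Depth limits Abcb1a, Ahrr, Gstt1, Cyp1a1 and Aldh3a1, which had few or no counts.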
